A study of Sus scrofa with 9 samples.

Results

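Transcript levels in longissimus dorsi, a long muscle along the spine, were compared between embryonic pigs of the Wujin and the Large White breed. The comparison used 9 libraries of the series in the fit and turned on 6 of them, the 3 of Wujin, an indigenous Chinese breed, and the 3 of Large White, an introduced breed. The other 3, from Tibetan pigs, gave no mean to the contrast. They entered the estimate of the spread and the mean FPKM by which entries were chosen for testing. They also entered the factors of the median-ratio scaling described below and the choice of 1 entry per symbol. All libraries of both breeds were taken by their labels, and no treatment, transgene, sex or gestational day was given for either, only that the animals were embryonic. By its title the series asks how prenatal muscle bears on differences in postnatal growth. Whether the libraries of 1 breed are separate animals, litters or dates is nowhere stated, so the p-values speak only for the spread among these samples, and that spread may be technical. A Wujin column carries the number 1 and the remaining pair share a header, so they are called Wujin 1, Wujin a and Wujin b. Values are FPKM, fragment numbers scaled by transcript length and library size, and series of values are given in the order Wujin 1, a and b, then Large White 1, 2 and 3.

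Skeletal muscle fibres form before birth by fusion of myoblasts, and the number of fibres is largely set by then. Early fibres use embryonic and perinatal forms of myosin and the cardiac form of actin, which adult fast and slow forms replace as the fibres mature, while calcium handling, innervation and glycolytic capacity build up. Proliferating myoblasts and fibroblasts, the matrix between the fibres, vessels, nerve and blood cells all add RNA to a sample of the whole muscle.

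The libraries carried the transcripts of embryonic muscle. ACTC1, the cardiac actin of early fibres, stood at 7699, 7694 and 7352 against 7347, 6304 and 6127 FPKM, and MYH3, the embryonic myosin heavy chain, at 1474, 1612 and 1203 against 1933, 1527 and 1803 FPKM. Neither was called different (limma adjusted p = 0.357 and 0.2303), and MYOD1, a regulator of myoblast commitment, stood between 46.9 and 56.9 FPKM in all 6. None of the 8 heart markers found in the table averaged 1 FPKM. Depth relative to Large White 1, read from the steps between values under 0.2 FPKM, lay between 1 and 1.17 in these libraries, so they were sequenced to a similar degree, while the absolute number of fragments is unknown. Wujin 1 stood apart. Under the deposited FPKM of the tested entries, its log2 profile correlated at 0.94 to 0.944 with Wujin a and b, which correlated at 0.966 with each other. With Large White it correlated at 0.89 to 0.916, against 0.942 to 0.955 for Wujin a and b. Principal components were taken after median-ratio scaling (described below) of the 6 libraries alone, over 13356 entries averaging 1 FPKM in them. On the first, which held 50.7% of the variance, Wujin 1 lay at -60.8, Wujin a and b at -11.7 and -6.75 and the Large White libraries at 16.3, 29.1 and 33.8. List medians, and counts of more than 1 call in a direction, are therefore given with and without Wujin 1, and for single genes the left-out libraries that ended a call are named. In Large White 2 an entry without a symbol was listed at 51249 FPKM, 8.73% of that library's total, and at 0 in the 5 other libraries of these breeds.

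Of 13106 entries averaging 1 FPKM or more across the series, 855 (6.52%) were called at an adjusted p under 0.05, 219 higher in Wujin (1.67%) and 636 lower (4.85%). The values of a library are shares of a whole, and the median FPKM of tested entries was 4.84, 6.21 and 6.27 in the Wujin libraries and 6.72, 6.85 and 7.20 in those of Large White. The median log2 difference of all tested entries was accordingly -0.197, and a relative difference below means one with this median taken off. After median-ratio scaling, which sets each library so that its typical entry matches the other libraries, 412 entries (3.14%) were called, 245 higher (1.87%) and 167 lower (1.27%). The share of calls that were higher in Wujin thus went from 25.6% under the deposited FPKM to 59.5% under median-ratio scaling. Both scalings called 184 entries higher and 167 lower, and 0 in opposite directions. Under the deposited FPKM alone 469 were called lower, and 61 were called higher under median ratios alone. All 167 lower calls of the median-ratio fit were thus also lower calls of the deposited values, whereas most lower calls of the deposited values were not called once the libraries were aligned by their typical entry. A difference of at least 2-fold on the log2(FPKM + 1) scale was reached by 73 of the higher and 154 of the lower calls under the deposited FPKM. After median-ratio scaling it was reached by 112 of the higher and 44 of the lower calls, so the balance of large differences also depended on the scaling. Without Wujin 1 there were 113 higher and 317 lower calls, and among the lower calls of all libraries Wujin 1 was the lowest Wujin value in 527 of 636, against 63.2% of all tested entries. Among the higher calls it was the highest Wujin value in 126 of 219 (57.5%), against 23.1% of all tested entries, so calls in both directions leaned on that library.

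**Figure D1:**
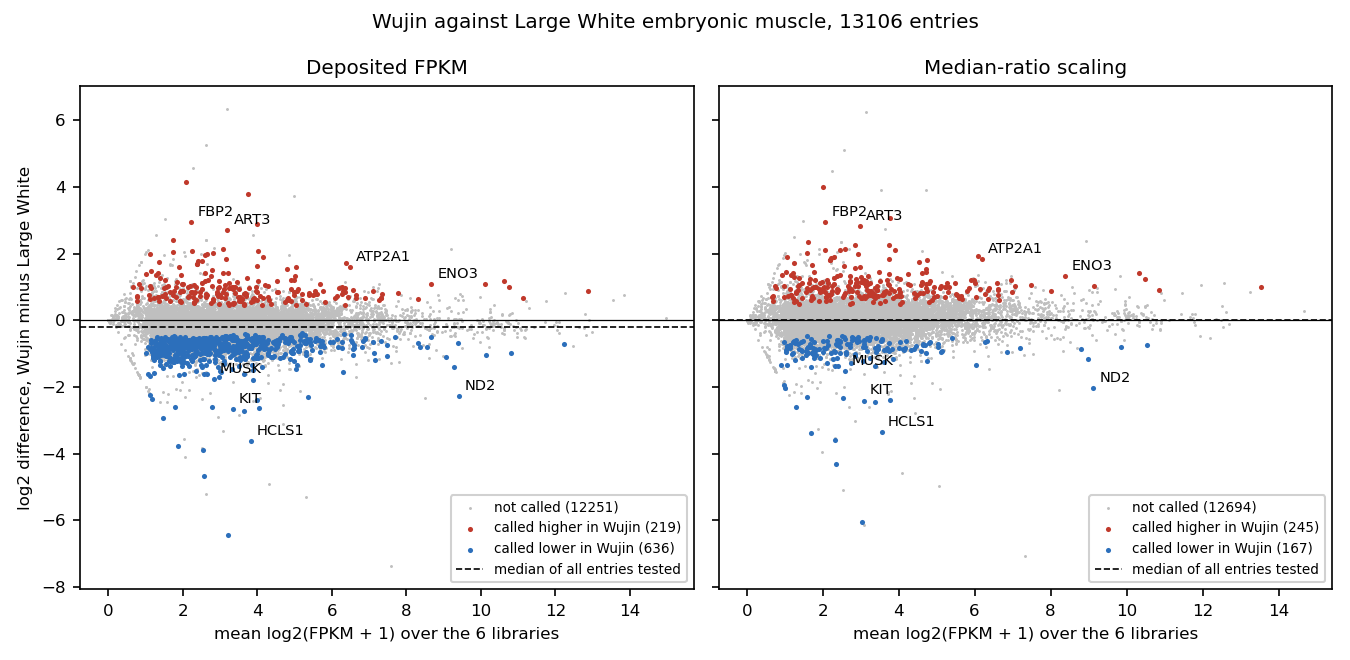
Each point is 1 of 13106 entries, placed by its mean log2(FPKM + 1) over the 6 libraries and its log2 difference, Wujin minus Large White, from the deposited FPKM on the left and after median-ratio scaling on the right. The dashed line, the median of all entries, lies at -0.20 on the left and at about 0 on the right, where the lower calls thin out from 636 to 167 while the higher calls number 219 and 245.

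Counting the 3 values of each breed without a model, 9.67% of entries were higher in every Wujin than in every Large White library and 35.3% were lower. After median-ratio scaling these shares were 19.7% and 20.3%. A complete separation of the breeds was thus common. A call rested instead on the size of the difference beside the spread in the fit, and how many calls were also complete separations was not counted. The number of calls also varied with the libraries used: 430 without Wujin 1, 141 without Wujin a, 1633 without Wujin b, 184 without Large White 1, 88 without Large White 2 and 66 without Large White 3. With the 6 libraries fitted alone, without the Tibetan ones, 281 entries were called, 113 higher and 168 lower.

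**Figure D2:**
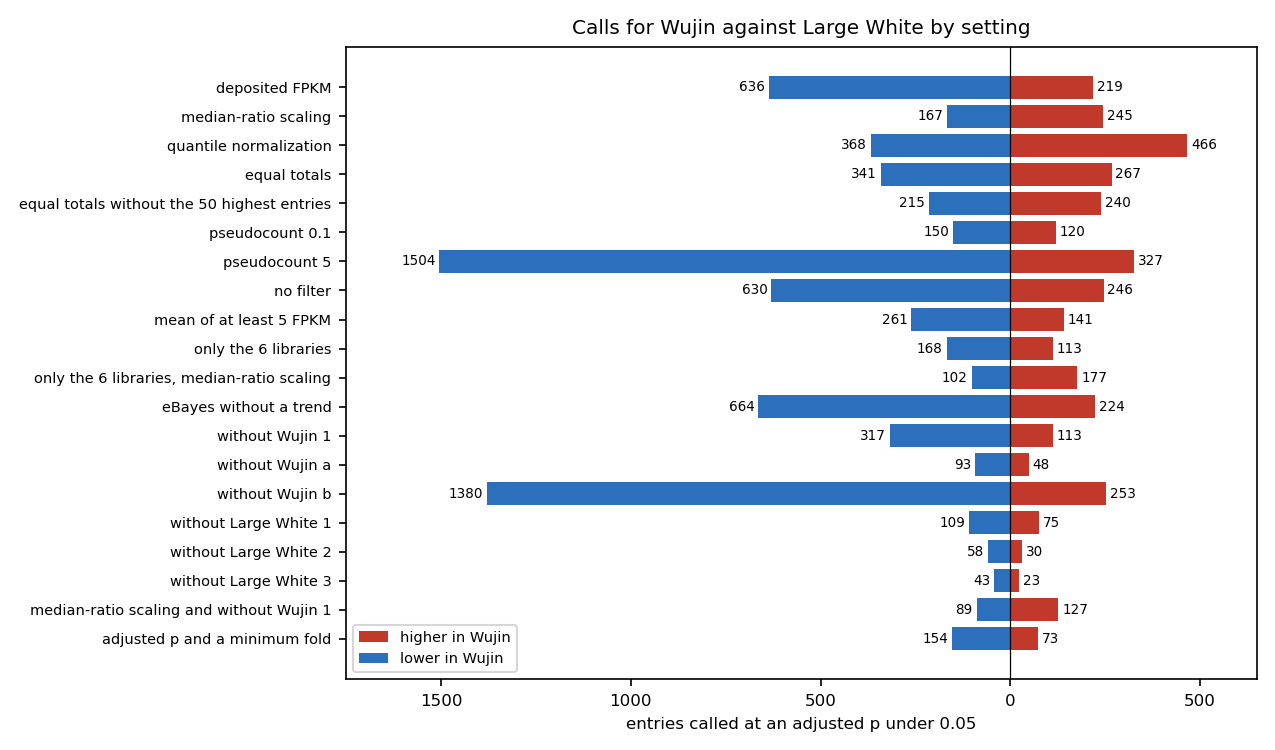
Bars count the entries called higher (right) and lower (left) in Wujin at an adjusted p under 0.05, starting at 0, for the deposited FPKM and each alternative. The lower calls range from 43 without Large White 3 to 1504 with a pseudocount of 5, and the higher calls from 23 to 466.

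Leading genes in both directions were taken among those with a symbol and a mean of 5 FPKM over the 6 libraries. They also had to be called, without overlap between the breeds, under both scalings, so their separation follows from the choice. The highest fold changes in Wujin among them belonged to genes of varied function, led by FBP2. FBP2, the muscle fructose bisphosphatase that works toward glycogen, stood at 12.3, 12.8 and 10.7 against 0.746, 0.737 and 0.542 FPKM, 17.6 times as high in the means. Every Wujin value lay more than 10 times above the nearest Large White one, and the log2 difference was 2.95 ± 0.24 (adjusted p = 0.000761). ART3, a member of the ADP-ribosyltransferase family, stood at 20.7, 20.7 and 26.5 against 2.46, 3.52 and 1.91 FPKM (log2 difference 2.72 ± 0.29, adjusted p = 0.00366). DUSP26, a dual-specificity phosphatase, stood at 43.4, 30.1 and 24.8 against 8.36, 7.89 and 4.82 FPKM (adjusted p = 0.00495), with Wujin 1 the highest and no overlap between the breeds. PEBP4, of the phosphatidylethanolamine-binding protein family, stood at 32.6, 24.7 and 25.1 against 9.27, 7.87 and 7.07 FPKM, 3.401 times as high in Wujin (adjusted p = 0.00325). KCP, a secreted modulator of bone morphogenetic protein signalling, stood at 9.49, 7.25 and 9.8995 against 1.61, 2.25 and 1.805 FPKM (log2 difference 1.77 ± 0.15, adjusted p = 0.000795). All 5 were called under every alternative that tested them.

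A pair of the leading genes belong to the fast-contracting machinery. ATP2A1, the calcium pump of the fast sarcoplasmic reticulum, stood at 143, 172 and 149 against 52.6, 52.6 and 45.1 FPKM, 3.09 times as high in the means (adjusted p = 0.00753). MYBPC2, the fast form of myosin-binding protein C, stood at 17.2, 14.2 and 9.05 against 2.89, 2.18 and 2.38 FPKM, 5.44 times as high (adjusted p = 0.00668). Both were called under every alternative. GPD1, the cytosolic glycerol-3-phosphate dehydrogenase that links glycolysis to lipid, stood at 73.1, 57.95 and 41.4 against 20.9, 17.9 and 14.9 FPKM (adjusted p = 0.0153), and HSPB6, a small heat shock protein abundant in muscle, at 53.4, 49.9 and 45.8 against 20.96, 19.01 and 17.7 FPKM (adjusted p = 0.0322). For GPD1 the Wujin libraries were themselves spread, from 41.4 to 73.1 FPKM, while those of HSPB6 lay within 45.8 to 53.4.

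The other genes described from this group were SCRN2 of the secernin family, TNXB, a tenascin of the matrix, SHOX2, a homeobox factor of limb development, H2BC5, a histone H2B, and FCN2, a ficolin of the lectin pathway of complement. SCRN2 stood at 17.8, 16.5 and 13.7 against 5.13, 2.59 and 3.86 FPKM and TNXB at 43.7, 45.1 and 55.2 against 17.7, 24.2 and 18.3 FPKM, with adjusted p = 0.0112 and 0.00958. H2BC5, a member of a family of near-identical genes, stood at 26.5, 32.3 and 44.3 against 16.2, 13.1 and 13.6 FPKM (adjusted p = 0.0133). In all 3 the highest Large White library stayed below the lowest Wujin library, by the rule that chose them. SHOX2 and FCN2 varied most within Large White, at 2.22, 5.11 and 2.69 and 0.892, 3.48 and 0.428 FPKM, against 7.17, 7.97 and 11.3 and 7.44, 12.04 and 7.204 FPKM in Wujin (adjusted p = 0.0366 and 0.0383). Calls of this group that ended when 1 library was left out were those of GPD1 without Wujin a or Large White 2 or 3 (adjusted p up to 0.0815), HSPB6 without Wujin 1 or a or any Large White library (adjusted p up to 0.131), SCRN2 and TNXB without Large White 3 (adjusted p up to 0.0571), SHOX2 and FCN2 without Wujin 1 or a or Large White 1 or 3 (adjusted p up to 0.142) and H2BC5 without Large White 2 or 3 (adjusted p up to 0.0754).

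Genes of lowest fold change in Wujin were likewise varied, and included HCLS1, KIT, the neuropeptide gene CORT and a pair of mitochondrial transcripts described further on. HCLS1, a cortactin relative known from blood cells, stood at 2.73, 3.17 and 3.197 against 48.5, 52.4 and 44.04 FPKM and had the smallest adjusted p of the named genes (1.3e-05, log2 difference -3.61 ± 0.14). Within each breed its values lay close together and the Large White mean was 15.9 times the Wujin mean. Of the other 25 leukocyte markers found in the table, the summed level was 43.3, 58.5 and 63.8 FPKM in Wujin and 67.6, 99.2 and 68.2 in Large White. In whole tissue, fewer cells of a type and less RNA per cell cannot be told apart.

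KIT, the receptor of stem cell factor, known from pigment, mast and germ cells, stood at 1.95, 3.71 and 3.61 against 25.01, 24.05 and 24.2 FPKM. The Large White libraries were almost level with each other and the breeds differed by -2.67 ± 0.19 on the log2 scale (adjusted p = 0.00033). DCX, the microtubule-binding doublecortin of migrating neurons and of immature muscle precursors, stood at 3.35, 4.74 and 3.59 against 23.8, 30.5 and 40.96 FPKM (adjusted p = 0.000353). EPHA3, an ephrin receptor of axon guidance, stood at 1.14, 2.2999 and 2.17 against 12.6, 16.6 and 19.1 FPKM, 8.62 times as high in Large White (adjusted p = 0.00059). MUSK, the kinase that assembles acetylcholine receptors at the endplate, stood at 2.87, 3.03 and 2.66 against 10.4, 11.6 and 14.8 FPKM (adjusted p = 0.00445). In each of these the lowest Large White library was at least 3 times the highest Wujin one.

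KIF24, a kinesin that acts on the primary cilium, stood at 2.26, 2.604 and 2.29 against 7.11, 10.6 and 10.9 FPKM, and TDRD12, a Tudor domain protein of germline small-RNA pathways, at 1.85, 3.57 and 2.66 against 9.49, 9.96 and 10.5 FPKM (adjusted p = 0.00246 and 0.00334). LRRC39, a leucine-rich repeat protein of the M-band of the sarcomere, was abundant in both breeds and lower in Wujin, at 20.8, 19.5 and 16.1 against 56.3, 47.4 and 56.5 FPKM (adjusted p = 0.00543). All of HCLS1, KIT, DCX, EPHA3, MUSK, KIF24, TDRD12 and LRRC39 were called under every alternative that tested them. AGTR2, the type 2 angiotensin receptor of fetal tissue, stood at 2.903, 6.92 and 6.32 against 15.2, 15.1 and 16.6 FPKM, and HAS2, a hyaluronan synthase, at 2.53, 5.32 and 6.49 against 11.3, 13.2 and 13.5 FPKM. IL17RD, an inhibitor of fibroblast growth factor signalling, stood at 6.57, 10.3 and 13.8 against 26.4, 24.7 and 31.01 FPKM and CCDC3, a secreted protein, at 1.599, 2.303 and 3.98 against 6.65, 8.21 and 9.95 FPKM. CORT, the neuropeptide cortistatin, was listed at 0 in Wujin 1 and b and at 2.45 FPKM in Wujin a, and stood at 6.27, 31.7 and 46.6 FPKM in Large White. These 5 had adjusted p = 0.0227, 0.0288, 0.02602, 0.0263 and 0.0238, with no overlap between the breeds by the rule that chose them. Their calls ended for AGTR2 without any Large White library (adjusted p up to 0.105), HAS2, IL17RD and CCDC3 without Wujin a or any Large White library (adjusted p up to 0.122) and CORT without Wujin 1 or Large White 2 or 3 (adjusted p up to 0.101).

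**Figure D3:**
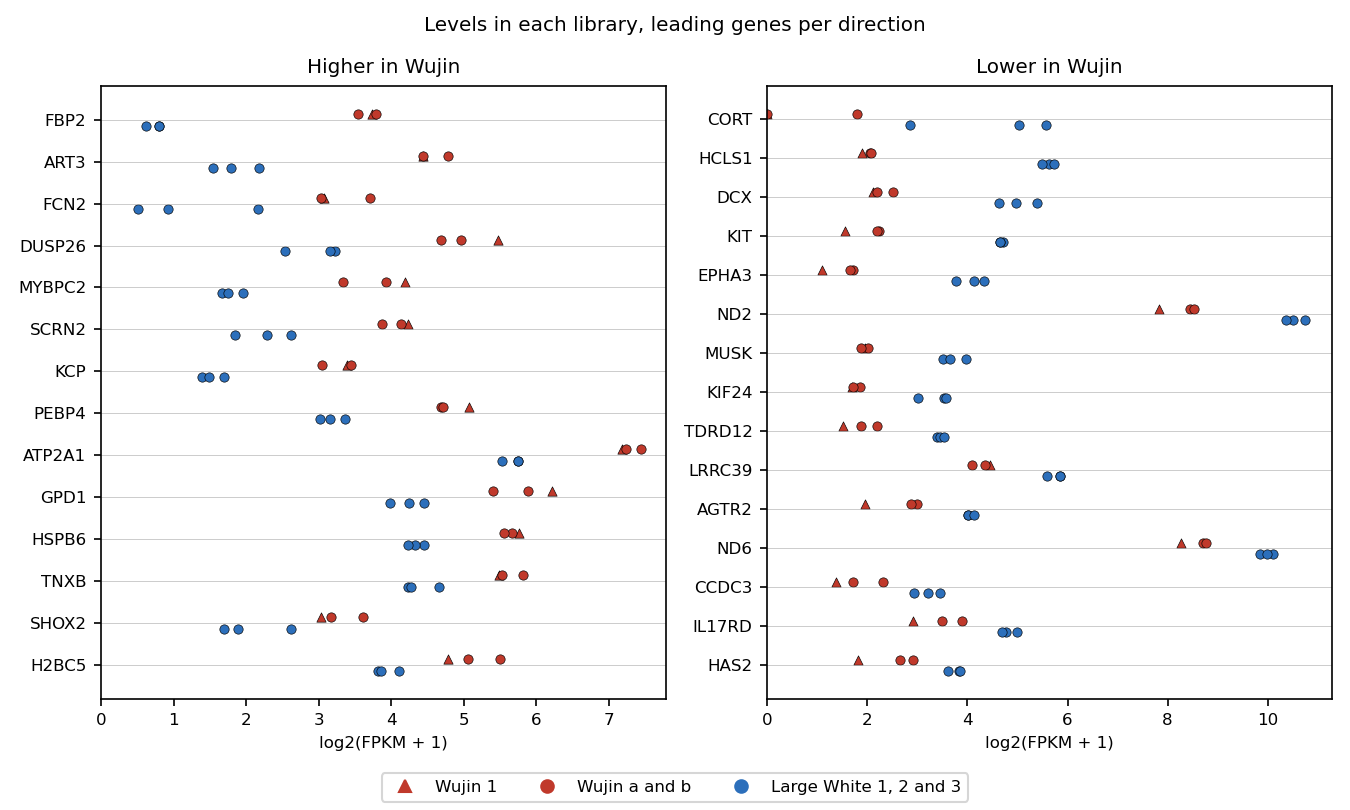
Each point is 1 library's log2(FPKM + 1) for 14 of the 15 genes of highest (left) and the 15 of lowest (right) fold change in Wujin, with Wujin 1 as a triangle, Wujin a and b as red circles and Large White as blue circles. Breeds do not overlap in any of them by the rule that chose them, FBP2 and HCLS1 show wide gaps with tight groups, and CORT and FCN2 show a wide spread within Large White.

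Several genes of fast-contracting fibres and their calcium handling were higher in Wujin. Of 11 measured members of a list of 21, 5 were called higher and 0 lower, beside 1.67% of all entries called higher. The shares of all entries, 1.67% higher and 4.85% lower under the deposited FPKM, are the background of every list count that follows. Under median-ratio scaling 4 were called higher (1.87% of all), with a relative list median of 0.68. Under the deposited FPKM 11 of 11 lay above the median difference of all entries. The list median relative to it was 0.65 there, and 0.60 without Wujin 1. Beside ATP2A1 and MYBPC2 the called members were CASQ1, TNNC2 and MYOZ1. CASQ1, which stores calcium in the reticulum, stood at 127, 100.02 and 82.5 against 49.8, 48.2 and 56.8 FPKM. MYOZ1, which anchors calcineurin at the Z-disc of fast fibres, stood at 300.3, 293 and 269 against 199, 158 and 136 FPKM, 1.75 times as high in Wujin (adjusted p = 0.0349 and 0.0263). TNNC2, the fast calcium-binding troponin, stood at 13304, 8756 and 8834 against 6788, 5338 and 4521 FPKM (adjusted p = 0.0482, and 0.0657 after median-ratio scaling). In all 3 the groups did not overlap. Only ATP2A1 and MYBPC2 stayed called whichever library was left out: 2 members were called without Wujin 1, 2 without Wujin a, 5 without Wujin b and 3, 2 and 2 without Large White 1, 2 and 3. Relative to Large White, the list's median was 1.21, 0.64 and 0.54 in Wujin 1, a and b, so the library that stands apart was the highest and the others also lay above 0.

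Slow-fibre genes gave 0 calls in either direction among 8 under the deposited FPKM, and their relative median was 0.05, and -0.04 without Wujin 1. SLN, sarcolipin, which regulates the calcium pump, stood at 918, 924 and 871 against 637, 495 and 449 FPKM. It was called higher under median-ratio scaling (adjusted p = 0.0387) and not under the deposited FPKM (adjusted p = 0.0504). Of 19 alternatives 8 called it, among them quantile normalization and the 6 libraries alone (adjusted p = 0.0491). MYL3, the slow ventricular myosin light chain, stood at 388, 429 and 261 against 723, 634 and 859 FPKM, lower in each Wujin library, and was not called (adjusted p = 0.0718). TNNT1, the slow troponin T, stood at 639, 515 and 379 against 872, 613 and 610.3 FPKM, with overlapping groups. The difference between the fast and the slow list was not tested.

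The embryonic and perinatal genes gave 1 call among 9 and a relative median of 0.42, or 0.32 without Wujin 1. MYH8, the perinatal myosin heavy chain, stood at 99.02, 109.6 and 117 against 59.5, 51.4 and 51.2 FPKM, without overlap (adjusted p = 0.0109, 0.00862 after median-ratio scaling). Myosin heavy chain genes are near-identical neighbours and reads can be split between them, so single values are uncertain. MYH3 overlapped between the breeds, and MYL4, the embryonic light chain, stood at 2188, 1866 and 1607 against 1853, 1673 and 1445 FPKM (adjusted p = 0.576). TNNT2, the cardiac troponin T of early fibres, stood at 1023, 740.2 and 663 against 556, 518 and 423 FPKM, higher in each Wujin library and not called (adjusted p = 0.0679). The calls ended for MYH8 without Large White 2 or 3 (adjusted p up to 0.0657).

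Genes shared by all fibres moved in both directions. Of 22, 2 were called higher and 2 lower, with a relative median of 0.44. Without Wujin 1 these were 2, 0 and 0.38. TPM1, alpha-tropomyosin, stood at 2739, 2362 and 2269 against 1337, 1239 and 1101 FPKM, and TMOD4, which caps thin filaments, at 32.4, 25.2 and 23.97 against 15.6, 11.7 and 11.3 FPKM (adjusted p = 0.0168 and 0.0186). MYOM1, which crosslinks myosin at the M-band, stood at 89.9, 103 and 97.2 against 136, 135 and 152 FPKM, and CKMT2, the sarcomeric mitochondrial creatine kinase, at 7.05, 10.1 and 6.07 against 14.7, 12.3 and 15.6 FPKM. These were lower at adjusted p = 0.0339 and 0.0447, and neither passed under median ratios (adjusted p = 0.132 and 0.109). ACTA1, the skeletal actin, stood at 5708, 6722 and 7148 against 4067, 3737 and 3208 FPKM, without overlap, and was not called in the fit of all libraries (log2 difference 0.83 ± 3.38, adjusted p = 0.882). Its spread there came with a Tibetan library in which the gene is listed at 0; in the 6 libraries alone its adjusted p was 0.0416. Calls of these genes ended for TPM1 and TMOD4 without Wujin a or Large White 2 or 3 (adjusted p up to 0.0986), MYOM1 without Wujin 1 or a or any Large White library (adjusted p up to 0.137) and CKMT2 without Wujin 1 or b or any Large White library (adjusted p up to 0.161).

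Regulators of myogenesis gave few calls. Of 20 measured, 1 was called higher, 2 lower and 17 not at all, and without Wujin 1 there were 0 higher and 1 lower calls. LBX1, the homeobox factor of migrating limb muscle precursors, stood at 7.95, 6.75 and 4.47 against 2.201, 2.38 and 3.46 FPKM (adjusted p = 0.0317). CDON, a cell surface co-receptor that promotes differentiation, stood at 4.05, 8.19 and 10.5 against 14.4, 16.7 and 20.05 FPKM, and EYA2, a transcriptional cofactor of precursor cells, at 1.99, 2.87 and 2.32 against 4.28, 4.42 and 4.12 FPKM (adjusted p = 0.0435 and 0.0485). CDON and EYA2 did not pass under median ratios (adjusted p = 0.05699 and 0.158). MYF5, of early myoblasts, stood at 44.3, 56.3 and 51.5 against 49.03, 42.9 and 48.9 FPKM, with overlapping groups, and MYF6, of maturing fibres, at 50.3, 43.7 and 43.6 against 33.7, 28.7 and 30.8 FPKM, without overlap (adjusted p = 0.734 and 0.127). MYMK, the membrane protein that drives fusion, stood at 155, 149 and 130.2 against 114, 98.9 and 92.9 FPKM (adjusted p = 0.191), and FGFR4, a growth factor receptor of myoblasts, at 57.4, 58.5 and 50.1 against 75.7, 71.4 and 85.03 FPKM (adjusted p = 0.0526). Leaving out 1 library ended the calls of LBX1 without Wujin 1 or a or any Large White library (adjusted p up to 0.119), CDON without Wujin a or any Large White library (adjusted p up to 0.161) and EYA2 without any Wujin library or any Large White library (adjusted p up to 0.151).

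MSTN, myostatin, the secreted brake on muscle mass, stood at 8.45, 19.1 and 20.9 against 27.4, 29.7 and 33.5 FPKM. Every Large White value exceeded every Wujin value, the log2 difference was -0.95 ± 0.45, and the gene was not called (adjusted p = 0.178, and 0.111 in the 6 libraries alone). In a list of myostatin, follistatin and atrophy genes with 11 measured, the call was MUSK, the endplate kinase above, which the endplate list below also holds. TRIM63, a ubiquitin ligase of atrophy, stood at 9.36, 11.6 and 9.797 against 9.31, 7.61 and 5.33 FPKM (adjusted p = 0.132).

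Genes of the endplate and of membrane excitation gave 4 higher calls and 1 lower among 11, with a relative median of 0.67, or 0.53 without Wujin 1. These calls were 36.4% and 9.09% of the list, beside 1.67% and 4.85% of all entries. SCN4A, the sodium channel of the muscle action potential, stood at 9.33, 13.1 and 12.6 against 5.63, 4.38 and 5.18 FPKM and CACNA1S, the voltage sensor of the transverse tubule, at 38.9, 42.4 and 38.9 against 22.4, 19.3 and 19.97 FPKM. Both were about 2-fold higher in Wujin without overlap, 2.31 and 1.95 times (adjusted p = 0.0294 and 0.0295). CACNG1, a subunit of the same calcium channel, stood at 77.9, 79.8 and 61.3 against 43.3, 39.6 and 33.8 FPKM (adjusted p = 0.0369997). COLQ, the collagen tail that holds acetylcholinesterase at the endplate, stood at 14.2, 14.1 and 12.6 against 8.74, 9.39 and 10.6 FPKM (adjusted p = 0.0447). MUSK, at the same synapse, was the lower call. After median-ratio scaling the same numbers were called. Fewer were called when 1 library was left out: 1 gene was called higher without Wujin 1, 0 without Wujin a, 4 without Wujin b and 0 without Large White 1, 2 or 3, while the count of lower calls was 1 each time.

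**Figure D4:**
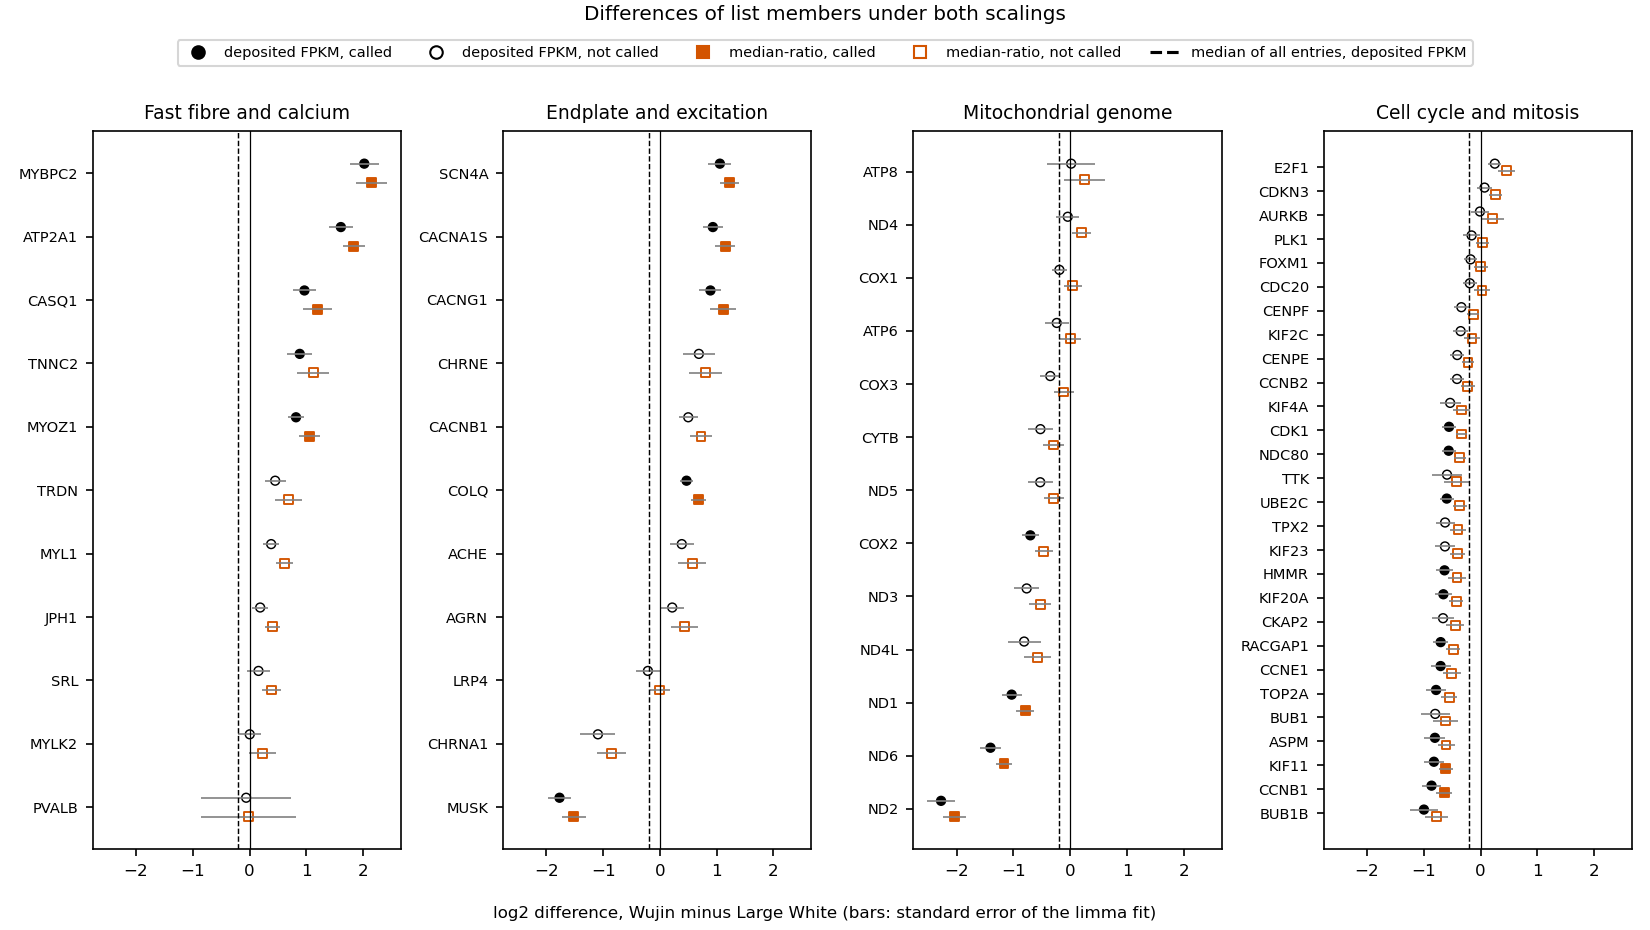
Each row is a list member with its log2 difference, Wujin minus Large White, and the standard error of the limma fit, as circles for the deposited FPKM and squares after median-ratio scaling, filled where called. The fast-fibre and excitation genes lie mostly right of the dashed median of all entries, MUSK and ND2 lie farthest left in their lists, and of the 12 filled cell-cycle circles 2 are also filled as squares.

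Glycolysis and glycogen genes gave 3 higher calls and 1 lower among 32, and their relative median was 0.22. That is 9.38% and 3.12% of the list, beside 1.67% and 4.85% of all entries, so the share called lower was under the background. Without Wujin 1 there were 3 and 1 calls and the median was 0.23. ENO3, the muscle enolase, stood at 669, 560.3 and 546 against 354, 243 and 245 FPKM, 2.11 times as high in Wujin (adjusted p = 0.0169). SLC2A4, the insulin-responsive glucose transporter, was low in both breeds, at 1.43, 1.56 and 1.798 against 0.268, 0.365 and 0.0575 FPKM (adjusted p = 0.0116). This gene averaged 1 FPKM only with the Tibetan libraries included, and it was not tested in the 6 libraries alone. PGAM1, the non-muscle phosphoglycerate mutase, was the lower call, at 30.5, 43.4 and 43.1 against 59.6, 70.4 and 68.6 FPKM (adjusted p = 0.0323). FBP2 was the third higher call. Median-ratio scaling gave 4 higher calls and 1 lower. The calls ended for ENO3 without Wujin a or Large White 2 or 3 (adjusted p up to 0.092), SLC2A4 without Large White 3 (adjusted p up to 0.0675) and PGAM1 without Wujin a or any Large White library (adjusted p up to 0.132), and that of FBP2 held in each.

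Several transcripts of the mitochondrial genome were lower in Wujin. Of its 13 protein genes, 4 were called lower and 0 higher, beside 4.85% of all entries called lower, with a relative median of -0.33. Without Wujin 1 there were 3 lower calls and the median was -0.18. By library it was -0.66 in Wujin 1 and -0.17 and -0.23 in Wujin a and b. ND2, a membrane subunit of complex I, stood at 227, 346 and 368 against 1715, 1454 and 1323 FPKM, 4.78 times as high in Large White (log2 difference -2.27 ± 0.24, adjusted p = 0.00366). ND6, a further subunit, stood at 305, 414 and 436 against 1096, 924 and 1015 FPKM, and ND1 at 644, 869 and 857 against 1840.0, 1584 and 1408 FPKM (adjusted p = 0.006701 and 0.0209). COX2, a catalytic subunit of cytochrome oxidase, stood at 3212, 3909 and 4189.5 against 6790.5, 5911 and 5648 FPKM (adjusted p = 0.0346, and 0.118 after median-ratio scaling, which called 3). ND2 and ND6 were called under every alternative. Leaving out 1 library ended the calls of ND1 without Wujin a or any Large White library (adjusted p up to 0.0889) and COX2 without Wujin 1 or a or any Large White library (adjusted p up to 0.126). The summed level of the 13 genes under the deposited FPKM was 30592, 48190.3 and 50664 FPKM in Wujin and 62282, 53506 and 51438 FPKM in Large White. These sums did not overlap, but Wujin b and Large White 3 were close together. Divided by the median-ratio factors, 1.215 for Wujin b and 1.356 for Large White 3, the sums overlapped between the breeds. As a share of the library total the summed level was 6.06%, 8.902% and 9.204% in Wujin and 10.8%, 9.12% and 9.499% in Large White, with overlapping groups. The total of Large White 2 includes the entry of 51249 FPKM. ND6 lies on the other strand from its neighbours, and whether the counting used strand is not given, so reads of both strands cannot be told apart.

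Nuclear genes of oxidative phosphorylation gave few calls. Of 33, 1 was called higher, NDUFS6 at 103, 94.4 and 87.3 against 71.2, 70.2 and 63.1 FPKM, and 1 lower, NDUFB5 at 13.8, 18.5 and 20.2 against 27.9, 30.4 and 26.7 FPKM, both subunits of complex I. Neither passed under median ratios (adjusted p = 0.0619 and 0.0798). MDH1, the cytosolic malate dehydrogenase, was the call of 20 genes of the citric acid cycle and its shuttle, at 18.98, 26.8 and 28.9 against 42.1, 43.3 and 51.9 FPKM (adjusted p = 0.0277). Fatty acid oxidation gave 0 higher and 2 lower calls of 25, and 1 lower without Wujin 1: ACADL, the long-chain acyl-CoA dehydrogenase, at 6.43, 6.87 and 9.93 against 18.2, 16.9 and 15.4 FPKM (adjusted p = 0.0202), and SLC25A20, the carnitine carrier, at 10.3, 9.81 and 10.1 against 14.2, 14.04 and 12.9 FPKM (adjusted p = 0.04897, 0.404 after median-ratio scaling). PNPLA2, the lipase that opens fat droplets, was the call of 20 lipid genes and was higher in Wujin, at 31.99, 24.2 and 22.1 against 13.6, 11.7 and 10.5 FPKM (adjusted p = 0.0128). The calls ended for NDUFS6 and NDUFB5 without Wujin 1 or a or any Large White library (adjusted p up to 0.173), MDH1 and ACADL without Wujin a or any Large White library (adjusted p up to 0.12), SLC25A20 without any Wujin library or any Large White library (adjusted p up to 0.161) and PNPLA2 without Large White 2 or 3 (adjusted p up to 0.0741).

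Part of the genes of cell division were lower in Wujin under the deposited FPKM. Of 28 measured, 12 were called lower and 0 higher, beside 4.85% of all entries called lower, and the relative median was -0.40, or -0.33 without Wujin 1. The 3 Wujin values lay below all Large White values in 23 of the 28, beside 35.3% of all entries, and in 18 after median-ratio scaling, beside 20.3%. CCNB1, the mitotic cyclin, stood at 4.001, 5.95 and 7.14 against 10.6, 11.1 and 11.2 FPKM (adjusted p = 0.03302) and KIF11, the spindle motor, at 1.99, 3.01 and 3.78 against 5.59, 5.58 and 6.303 FPKM (adjusted p = 0.0347). RACGAP1, which organises the division furrow, stood at 6.56, 8.16 and 8.98 against 12.6, 13.7 and 13.8 FPKM, and UBE2C, a ubiquitin-conjugating enzyme of mitotic exit, at 20.1, 24.2 and 24.7 against 36.6, 33.5 and 35.3 FPKM (adjusted p = 0.0298 and 0.03601). In all 4 the Large White libraries were close together and Wujin 1 was the lowest Wujin library. Of the 12 calls, 2, CCNB1 and KIF11, were also called after median-ratio scaling. The count was 4 without Wujin 1, 13 without Wujin b, and 0 without Wujin a, without any Large White library and in the 6 libraries alone.

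DNA replication gave 3 lower calls of 23 (13.04%, beside 4.85% of all entries) and 0 without Wujin 1. The 3 genes were RPA2, CDC6 and PRIM2, at 7.198, 7.31 and 7.77 against 10.2, 11.5 and 10.5 FPKM, 1.49, 1.83 and 1.998 against 2.68, 3.02 and 3.07 FPKM and 3.09, 3.51 and 3.26 against 5.78, 4.498 and 5.77 FPKM, and 0 after median-ratio scaling. They act in single-strand binding, origin licensing and priming. Of 10 cell cycle inhibitors and p53 targets none was called under either scaling, and CDKN1A, which arrests differentiating myoblasts, stood at 62.5, 57.2 and 53.3 against 59.4, 46.6 and 40.3 FPKM, with overlapping groups. The replication calls ended for RPA2 and CDC6 without Wujin 1 or a or any Large White library (adjusted p up to 0.161) and PRIM2 without any Wujin library or any Large White library (adjusted p up to 0.164).

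Genes of the extracellular matrix gave 4 lower calls and 1 higher, TNXB, among 44, with a relative median of -0.27. These calls were 9.09% and 2.27% of the list, beside 4.85% and 1.67% of all entries. VCAN, the proteoglycan versican, stood at 54.4, 77.2 and 77.1 against 114, 132 and 134 FPKM, and COL12A1, a collagen of fibril surfaces, at 82.4, 142 and 153 against 218, 265 and 292 FPKM (adjusted p = 0.02602 and 0.0373). COL14A1, of the same collagen class, stood at 24.1, 38.7 and 50.1 against 67.4, 80.7 and 66.3 FPKM (adjusted p = 0.0456, 0.0712 after median-ratio scaling, which called 2 lower). A pair of fibrillar collagen genes overlapped between the breeds: COL1A2 stood at 944, 1133 and 1408 against 1444, 1335 and 1465 FPKM and COL3A1 at 1315, 2005 and 2691 against 2575, 3060.2 and 2501 FPKM (adjusted p = 0.235 and 0.227). The list's median was -0.71 in Wujin 1, -0.19 in Wujin a and -0.02 in Wujin b, farthest from 0 in the library that stands apart, and the list's median without that library was -0.12. Without Wujin 1 there were 4 lower calls, without Wujin b 11, and 0 without Wujin a or any Large White library.

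MATN4, a matrilin of cartilage and other matrices, was the higher call of 12 cartilage, bone and tendon genes, at 3.71, 2.34 and 3.48 against 0.847, 0.4296 and 0.428 FPKM (adjusted p = 0.00691), and was called under every alternative that tested it. SPP1, osteopontin, was the lower call, at 7.85, 24.9 and 26.5 against 56.9, 165 and 77.9 FPKM (adjusted p = 0.0394), with Large White 2 far above the other libraries, and missed the threshold under median ratios (adjusted p = 0.06003). Among 23 matrix proteases and inhibitors MMP23B was called higher, at 39.7, 33.7 and 34.5 against 23.9, 23.4 and 23.6 FPKM (adjusted p = 0.0367). Calls ended for SPP1 and MMP23B without Wujin 1 or a or any Large White library (adjusted p up to 0.139).

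Signalling pathways of growth gave few calls. KIT was the call of 29 growth factors and receptors. IGF1, the growth factor, stood at 5.36, 11.2 and 12.1 against 12.1, 24.1 and 14.8 FPKM and its receptor IGF1R at 0.998, 1.75 and 1.596 against 1.801, 1.85 and 2.31 FPKM, neither called (adjusted p = 0.133 and 0.241). Of 35 genes of the TGF-beta and BMP pathway CCN2, a matricellular target, was called lower, at 10.1, 13.2 and 16.5 against 24.9997, 24.2 and 30.9 FPKM (adjusted p = 0.0473, 0.0798 after median-ratio scaling), and the receptor BMPR1A stood at 4.35, 7.69 and 8.13 against 11.02, 12.4 and 11.3 FPKM (adjusted p = 0.0564). With all libraries, no imprinted gene of 13 was called under either scaling. MEST, expressed from the paternal copy in fetal tissue, stood at 21.5, 30.2 and 38.1 against 46.8, 44.6 and 52.8 FPKM, without overlap (adjusted p = 0.0564), and IGF2R, the scavenging receptor of insulin-like growth factor, at 18.6, 60.1 and 34.1 against 15.7, 17.8 and 21.1 FPKM, with Wujin a the highest (adjusted p = 0.134). IGF2R was called higher without Wujin 1 (adjusted p = 0.0468), and MEST was called lower without Wujin b (adjusted p = 0.0301).

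In the Wnt pathway 1 of 26 was called higher and 2 lower, or 1 and 1 without Wujin 1. FZD10, a receptor, stood at 13.6, 13.2 and 14.6 against 8.48, 8.56 and 7.32 FPKM (adjusted p = 0.0376). DKK3, a secreted glycoprotein related to Wnt antagonists, stood at 10.5, 10.5 and 11.8 against 19.3, 19.6 and 25.4 FPKM, and RSPO3, a secreted enhancer, at 2.796, 4.44 and 3.19 against 6.53, 8.06 and 7.84 FPKM (adjusted p = 0.0116 and 0.0315). Notch genes gave JAG2, a ligand, higher at 62.7, 41.9 and 37.8 against 25.7, 22.2 and 22.5 FPKM (adjusted p = 0.0298), and LFNG, a glycosyltransferase that tunes the receptor, lower at 22.9, 24.2 and 23.8 against 32.8, 35.5 and 33.6 FPKM (adjusted p = 0.0482), of 16. Of 20 homeobox genes HOXA7 was called higher, at 12.1, 13.5 and 13.3 against 4.92, 4.68 and 6.94 FPKM (adjusted p = 0.0233), and HOXC6 and HOXD3 lower, at 7.43, 6.92 and 8.67 against 18.1, 11.1 and 14.01 FPKM and 3.21, 3.91 and 3.51 against 6.63, 5.35 and 6.39 FPKM (adjusted p = 0.0347 and 0.04304), with 1 higher and 0 lower calls without Wujin 1. RSPO3, LFNG, HOXC6 and HOXD3 missed the threshold under median ratios (adjusted p = 0.0762, 0.196, 0.0922 and 0.135). Among these signalling genes calls ended for CCN2 and FZD10 without Wujin 1 or a or any Large White library (adjusted p up to 0.166), DKK3 without Large White 3 (adjusted p up to 0.0542), RSPO3 without Wujin 1 or any Large White library (adjusted p up to 0.131), JAG2 without Wujin a or any Large White library (adjusted p up to 0.127), LFNG and HOXD3 without any Wujin library or any Large White library (adjusted p up to 0.158), HOXA7 without Wujin a or Large White 1 or 2 (adjusted p up to 0.101) and HOXC6 without Wujin 1 or a or Large White 1 or 3 (adjusted p up to 0.132).

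Chaperones and the unfolded protein response gave 6 lower calls and 1 higher, HSPB6, of 30, with a relative median of -0.24, or -0.22 without Wujin 1. These calls were 20% and 3.33% of the list, beside 4.85% and 1.67% of all entries. By library the median was -0.26, -0.24 and -0.24 in Wujin 1, a and b, alike in all 3. DNAJA1, a co-chaperone of HSP70, stood at 36.5, 42.3 and 44.6 against 66.4, 80.2 and 70.4 FPKM, and HSP90AB1, the constitutive HSP90, at 179, 175 and 165 against 242, 238 and 255 FPKM (adjusted p = 0.0148 and 0.0322). HSPA5, the chaperone of the endoplasmic reticulum, stood at 61.2, 98.6 and 98.1 against 141, 152 and 152 FPKM (adjusted p = 0.037001). After median-ratio scaling 0 were called lower (adjusted p = 0.0524, 0.236 and 0.0576 for these) and 2 higher. The count of lower calls was 4 without Wujin 1, 1 without Wujin a or Large White 1, 10 without Wujin b and 0 without Large White 2 or 3.

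RNA-binding and splicing factors gave 4 lower calls of 27, 14.8% beside 4.85% of all entries, with a relative median of -0.21. Without Wujin 1 there were 1 higher and 2 lower calls and the median was -0.14. MBNL3, a muscleblind protein of embryonic splicing, stood at 2.28, 2.74 and 2.71 against 4.32, 5.21 and 6.396 FPKM, and IGF2BP1, a fetal RNA-binding protein, at 1.84, 1.73 and 1.91 against 3.09, 4.47 and 3.59 FPKM (adjusted p = 0.0288 and 0.0288). SRSF3 and SRSF7, serine and arginine rich splicing factors, stood at 27.2, 28.3 and 36.2 against 44.01, 49.99 and 46.4 FPKM and 6.84, 7.05 and 7.41 against 9.19, 11.5 and 11.3 FPKM (adjusted p = 0.0366 and 0.04304). None of these 4 passed under median ratios (adjusted p = 0.06402, 0.0688, 0.102 and 0.138). RPS4X, of the small ribosomal subunit, was the call of 15 cytosolic ribosomal proteins, at 514, 518 and 541 against 846, 863 and 798 FPKM (adjusted p = 0.0214, 0.117 after median-ratio scaling), a family with many near-identical copies. None of 31 mitochondrial ribosomal proteins was called under either scaling. Calls ended for MBNL3 and IGF2BP1 without Wujin a or Large White 2 or 3 (adjusted p up to 0.118), SRSF3 and SRSF7 without Wujin 1 or a or any Large White library (adjusted p up to 0.162) and RPS4X without Wujin a or any Large White library (adjusted p up to 0.102).

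Oxidative stress genes gave 1 higher and 3 lower calls of 22, hypoxia and angiogenic genes 2 lower of 17 and clock genes 2 lower of 14. The lower calls were 13.6%, 11.8% and 14.3% of these lists, beside 4.85% of all entries, and the higher call 4.55%, beside 1.67%. Without Wujin 1 the oxidative stress list had 0 higher and 1 lower, the hypoxia list 1 lower and the clock list 0 lower. SOD1, the cytosolic superoxide dismutase, stood at 79.3, 68.2 and 73.9 against 119.6, 119 and 107 FPKM and SOD3, the secreted form, at 3.296, 5.77 and 4.34 against 0.565, 2.48 and 1.601 FPKM, lower and higher in Wujin (adjusted p = 0.0298 and 0.0452). ANGPT1, an angiogenic ligand, stood at 0.635, 1.18 and 0.562 against 2.39, 2.24 and 2.75 FPKM, the clock-linked repressor NFIL3 at 2.87, 4.67 and 4.07 against 9.35, 9.07 and 11.1 FPKM and the clock repressor CRY1 at 1.65, 2.41 and 2.41 against 3.66, 4.03 and 3.96 FPKM (adjusted p = 0.0233, 0.03601 and 0.0477). HIF1A, the hypoxia-inducible factor, stood at 5.695, 12.8 and 14.8 against 19.6, 20.7 and 20.9 FPKM, without overlap and not called (adjusted p = 0.0728). Under median ratios SOD1 and CRY1 were not called (adjusted p = 0.183 and 0.0939). Calls ended for SOD1 without Wujin a or any Large White library (adjusted p up to 0.116), SOD3 without any Wujin library or any Large White library (adjusted p up to 0.14), ANGPT1 without any Large White library (adjusted p up to 0.101) and NFIL3 and CRY1 without Wujin 1 or a or any Large White library (adjusted p up to 0.161).

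Interferon-induced genes set Wujin 1 apart from the other libraries of these breeds. Of 26 measured, 23 were highest there among the 6 libraries, and the list's relative median was 1.83 in Wujin 1 against 0.12 and 0.21 in Wujin a and b. Over all tested entries Wujin 1 was the highest of the 3 Wujin libraries in 23.1%, and the share in which it was the highest of all 6 was not computed. RSAD2, an antiviral enzyme, stood at 4.68, 0.756 and 0.766 against 0.0545, 0.0933 and 0 FPKM, CMPK2, a mitochondrial nucleotide kinase, at 4.33, 1.16 and 0.769 against 0.2699, 0.368 and 0.2496 FPKM and HERC6, a ligase of the interferon response, at 7.25, 1.52 and 1.94 against 0.936, 1.102 and 0.652 FPKM. None of the 3 was called (adjusted p = 0.105, 0.0906 and 0.104), and 0 members were called higher. The list's median over the breed fell from 0.62 to 0.16 without Wujin 1. IFIT5, an RNA-binding member, was called lower in Wujin, at 3.96, 4.33 and 5.12 against 6.904, 8.48 and 8.402 FPKM (adjusted p = 0.0256). SLA-DQB1, a class II antigen-presenting chain of a polymorphic family, was the call of 6 presentation genes and was higher, at 9.8001, 9.83 and 12.7 against 5.17, 3.39 and 4.08 FPKM (adjusted p = 0.0116). Calls ended for IFIT5 without Wujin a or Large White 2 or 3 (adjusted p up to 0.119) and SLA-DQB1 without Large White 2 or 3 (adjusted p up to 0.0685).

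Of 15 complement and coagulation genes 2 were called higher, FCN2 and C4A, and 1 lower, TFPI, the inhibitor of the tissue factor pathway. C4A, a complement component with a near-identical copy in many genomes, stood at 25.1, 5.82 and 8.104 against 1.43, 3.01 and 1.91 FPKM, with Wujin 1 more than 3 times the other Wujin libraries (adjusted p = 0.0482), and TFPI at 1.77, 3.295 and 2.65 against 4.32, 5.401 and 6.52 FPKM (adjusted p = 0.0415). Neither passed under median ratios (adjusted p = 0.0688 and 0.08002), and the list had 0 higher and 0 lower calls without Wujin 1. The calls ended for C4A and TFPI without Wujin 1 or a or any Large White library (adjusted p up to 0.16).

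Plasma proteins, made by the liver, separated the Large White libraries from each other. In 9 of 12 measured genes Large White 2 and 3 both exceeded every other library of these breeds. The list had 24 members in the table, a gene could reach the mean of 1 FPKM through the libraries where it was high, and the share of all entries with this pattern was not computed. Members under that mean were mixed. GC stood at 0, 0 and 0 against 0, 0.686 and 1.01 FPKM, and CPS1 at 0.183, 0.359 and 0.261 against 1.4, 1.31 and 1.04 FPKM. AHSG, the fetal plasma glycoprotein fetuin, stood at 0.261, 0.145 and 0.184 against 1.097, 29.95 and 42.98 FPKM, AFP, alpha-fetoprotein, at 0.109, 0 and 0.0318 against 0.205, 6.23 and 8.75 FPKM and FETUB at 0.11996, 0.0557 and 0.211 against 0.661, 10.1 and 11.3 FPKM. The list's relative median was -0.89, 0.31 and 0.57 in Large White 1, 2 and 3, and -0.87, -1.09 and -1.10 in Wujin. None was called, while 4 were called lower in Wujin without Large White 1. The part of such RNA in other differences of Large White 2 and 3 was not tested.

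Markers of other cell types gave few calls. EGFL7, secreted by endothelium, was the call of 17 vessel genes, at 42.4, 33.5 and 29.3 against 21.004, 22.97 and 20.9 FPKM (adjusted p = 0.0394), and SMTN, smoothelin, that of 14 smooth muscle and pericyte genes, at 31.3, 32.8 and 30.8 against 21.3, 21.3 and 21.4 FPKM (adjusted p = 0.0346), both higher. SPTB, the beta spectrin of red cells and muscle membrane, was called higher at 60.3, 68.1 and 52.2 against 35.1, 32.3 and 35.6 FPKM, and FAXDC2, a gene of the megakaryocyte and red-cell lineage, lower at 0.539, 1.25 and 1.67 against 3.48, 3.27 and 3.69 FPKM, of 13 erythroid and iron genes (adjusted p = 0.0365 and 0.0238). STMN2, a microtubule protein of growing axons, was the call of 6 nerve genes, at 2.55, 1.15 and 2.09997 against 3.99, 3.93 and 4.99 FPKM (adjusted p = 0.0455). Of 15 epithelial markers found in the table, 4 averaged 1 FPKM over the 9 libraries and were tested. CDH1, the epithelial cadherin, and TP63, a factor of basal epithelium, were called higher, at 2.69, 7.19 and 8.11 against 1.42, 0.7901 and 1.22 FPKM and 2.38, 4.17 and 2.897 against 1.12, 1.19 and 0.875 FPKM (adjusted p = 0.0288 and 0.0324). Without Wujin 1, 2 were called higher. The markers under 1 FPKM did not share a direction. KRT15 was higher in each Wujin library, at 0.388, 0.36 and 0.488 against 0.333, 0.143 and 0.0954 FPKM. DSP was lower in each, at 0.0538, 0.105 and 0.0999 against 0.127, 0.15 and 0.177 FPKM. With median-ratio values EGFL7 and STMN2 missed the threshold (adjusted p = 0.0573 and 0.138). HCLS1 was the call of 12 leukocyte genes, in which LAPTM5, a lysosomal membrane protein of blood cells, stood at 3.44, 8.43 and 9.81 against 11.7, 19.5 and 14.3 FPKM (adjusted p = 0.0785). Among these markers calls ended for EGFL7, SMTN and SPTB without Wujin 1 or a or any Large White library (adjusted p up to 0.145) and FAXDC2, STMN2, CDH1 and TP63 without Wujin a or any Large White library (adjusted p up to 0.162).

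**Figure D5:**
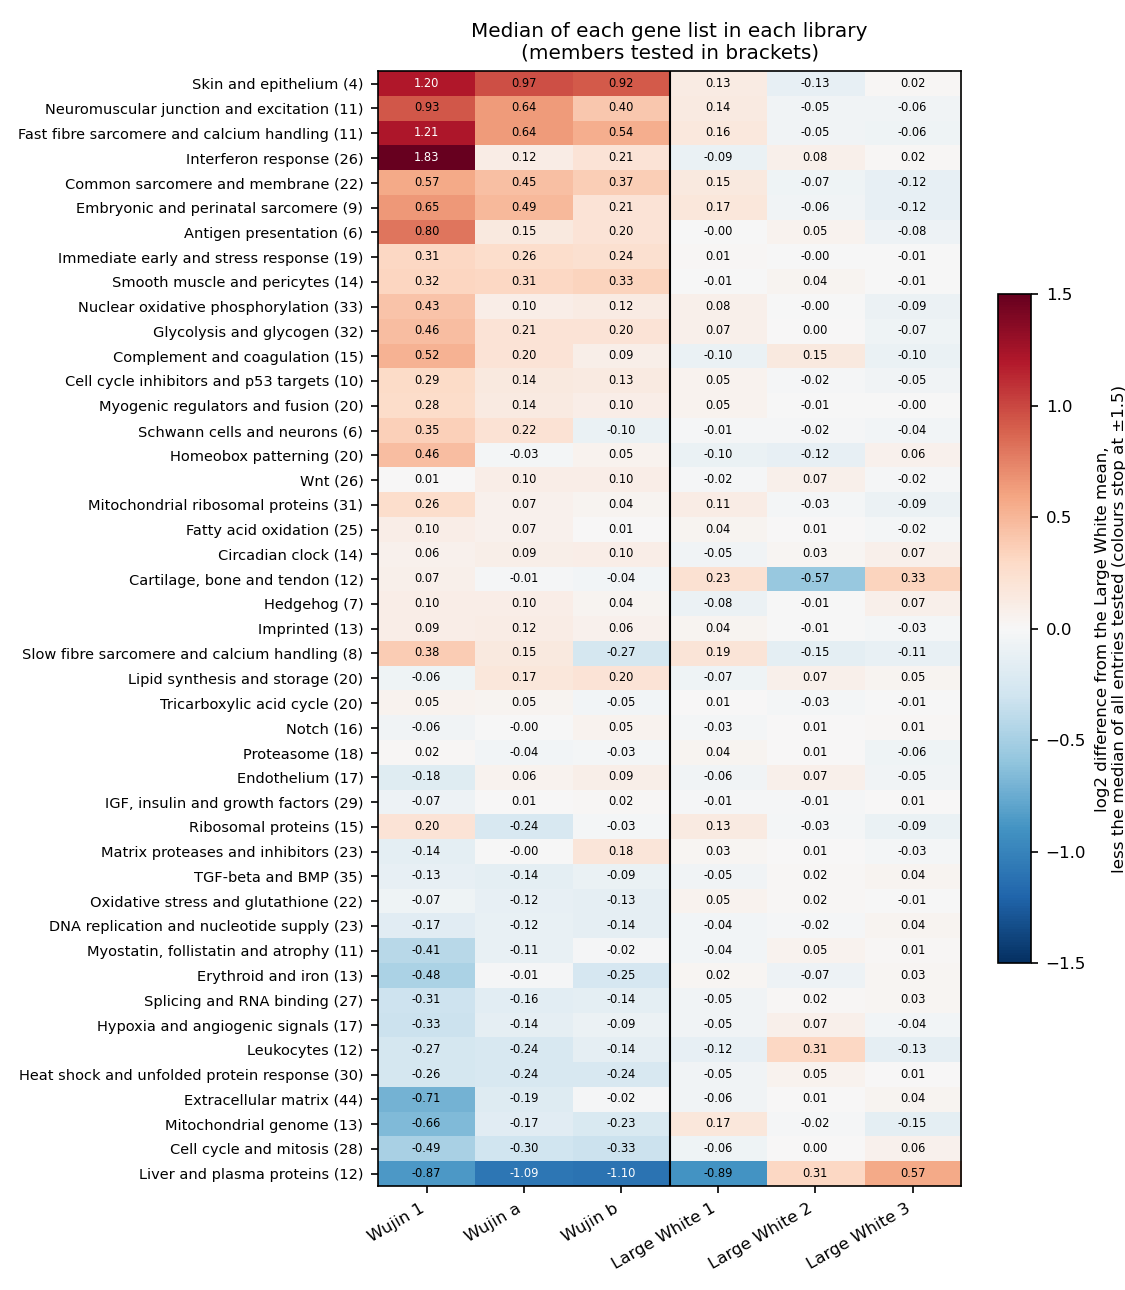
Each cell gives, for a gene list (members measured in brackets) and a library, the median log2 difference from the Large White mean, less the median of all entries tested. Fast-fibre and excitation genes are higher and cell-cycle genes lower in all 3 Wujin libraries, interferon genes stand out in Wujin 1 (1.83), and plasma proteins are higher in Large White 2 and 3 than in Large White 1.

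Entries without a symbol made up 281 of the calls, 91 higher and 190 lower, which is 5.59% of such entries tested against 7.102% of those with one. ENSSSCG00000026776 was listed at 0 in all 3 Wujin libraries and stood at 153, 86.5 and 47.5 FPKM in Large White, and ENSSSCG00000029058 stood at 0.182, 0 and 0.339 against 20.7, 35.8 and 31.9 FPKM. ENSSSCG00000003546 stood at 15.7, 22.8 and 13.1 FPKM in Wujin and was listed at 0 in all 3 Large White libraries, and ENSSSCG00000001229 stood at 119, 22.3 and 28.9 against 8.38, 5.26 and 2.44 FPKM. In all, 4 called entries were listed at 0 in all 3 Wujin libraries and 1 in all 3 of Large White. Such entries were tested only through the libraries in which they were high, so the direction of their calls was fixed. How many tested entries were at 0 in either breed was not counted.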

How the data were processed

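The 6 libraries are 3 samples each of Wujin and Large White longissimus dorsi, frozen on dry ice, with Trizol RNA and TruSeq libraries from 3 ug of total RNA, per the labels' protocols. The authors deposited 1 table of FPKM for 19643 entries, per the file headers. The submitters' processing notes name TopHat; for its version, the quantifier, build, annotation and strandedness, "not given in the sources used here" holds. Symbols were matched by identifier for 11179 entries (56.91%), and no genome or sequence was used. FPKM keep no read totals, so no counting interval is given.

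The 13106 entries averaging 1 FPKM or more over 9 libraries were tested on log2(FPKM + 1), which understates the change of low values, by limma 3.58.1 in R 4.3.3: 3 breed means, contrast Wujin minus Large White, eBayes with a trend, Benjamini-Hochberg adjustment over all entries, called under 0.05. Errors of log2 differences are standard errors of this fit (3 libraries a breed), and ratios such as "times as high" are of mean FPKM. Median-ratio factors used the 14562 entries above 0 in every library. Of each of 47 lists (1431 genes) counts and medians are given, without a set test. Named are the 15 highest and 15 lowest genes called without overlap under both scalings with a mean of 5 FPKM, up to 4 members of smallest p per list, and key genes; TNNC2 and COLQ are other called list members, and they and the entries without a symbol were chosen after their values were seen. A part of these is named, and 1 of the 15 highest is not reported here. The comparison, lists and key genes were chosen with earlier results of these data known. Tests were checked on simulated data. Alternatives were other scalings, pseudocounts, filters, fits and left-out libraries.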

Additional observations from a re-analysis of the deposited data

How the results depend on the processing

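The count of calls (855, with 219 higher and 636 lower in Wujin) changed with the choices, most of them by more than 1.5 times in a direction or in all. It was 412 (245 and 167) with median-ratio scaling, 834 (466 and 368) with quantile normalization, 608 (267 and 341) with equal totals and 455 (240 and 215) with equal totals without the 50 highest entries. It was 270 (120 and 150) with a pseudocount of 0.1, 1831 (327 and 1504) with 5, 876 (246 and 630) without a filter, 402 (141 and 261) with a mean of at least 5 FPKM and 888 (224 and 664) without a trend. The 6 libraries alone gave 281 (113 and 168), and 279 (177 and 102) after median-ratio scaling; an added 2-fold minimum gave 227 (73 and 154). Leaving out 1 library gave 66 to 1633 calls, 23 to 253 higher and 43 to 1380 lower; median-ratio scaling without Wujin 1 gave 216 (127 and 89). Leaving out a library also leaves fewer samples, and the cause of the rise without Wujin b was not tested. Among 102 called genes named in the text, 18 were called under every alternative that tested them and 0 changed direction. No paired analysis was possible because the Wujin and Large White columns share only the number 1. FPKM without read totals do not say what depth limits.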

Other observations

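Lists of protein turnover and of rapid stress responses held few calls. Of 18 proteasome genes PSMA5, an alpha subunit of the core particle, was called lower in Wujin under the deposited FPKM (adjusted p = 0.0394), at 27.6, 28.8 and 31.2 against 40.1, 41.7 and 39.1 FPKM, and not after median-ratio scaling (adjusted p = 0.2799). Leaving out 1 library ended the call of PSMA5 without Wujin 1 or a or any Large White library (adjusted p up to 0.144). Of 19 immediate early and stress response genes 0 were called in either direction, while 16 lay above the median difference of all entries, with a relative list median of 0.27, or 0.22 without Wujin 1. JUNB, an early transcription factor, stood at 5.48, 4.38 and 4.504 against 3.12, 3.58 and 2.38 FPKM, and MYC, a driver of growth and proliferation, at 15.3, 21.1 and 15.8 against 23.9, 26.4 and 27.7 FPKM, neither called (adjusted p = 0.0728 and 0.183). Of 7 hedgehog pathway genes CDON, which also serves as a hedgehog co-receptor, was the call. No sex-linked gene of the list was found by symbol, so the sex of the embryos was not looked at here.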
